A study of Mus musculus with 6 samples.

Results

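The genes described here encode the enzymes that methylate histone H3 at lysine 4 (H3K4) and lysine 79 (H3K79) and the shared core of the H3K4 complexes. They are Dot1l, Kmt2a, Kmt2b, Kmt2c, Kmt2d, Setd1a, Setd1b, Wdr5, Ash2l and Rbbp5. These 10 genes were taken by symbol from the 16982 genes of the count table, and each symbol matched 1 gene.

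RNA was sequenced from 3 WT and 3 Rnf20-/- (KO) cultures of C57BL/6 mouse embryonic fibroblasts (MEF) on day 3 after infection with retroviruses for the reprogramming factors OCT4, SOX2, C-MYC and KLF4. The KO cells came from Rnf20 Flox/Flox embryos carrying Tamoxifen-cre, so the deletion depends on the drug and is not limited to 1 cell type. The study's methods describe 4-OH tamoxifen for the deletion, whereas the labels list every culture as untreated, and whether the WT cultures received the drug or carried the Cre is not given in the sources used here. The methods also describe replating of infected MEF on mitomycin C-treated feeder MEF, and the share of feeder RNA in the libraries is not known. The labels do not say that the replicates of a genotype were separate embryos or cultures, so the p-values measure only the spread between these samples. In WT this spread may be technical, while the KO libraries differed in Y-linked transcripts.

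RNF20 forms with RNF40 the E3 ligase that attaches ubiquitin to histone H2B (H2Bub). H2Bub is known to stimulate DOT1L, the H3K79 methyltransferase, and the COMPASS family of H3K4 methyltransferases. Each COMPASS complex holds 1 catalytic subunit, which is SETD1A or SETD1B, KMT2A or KMT2B (also called MLL1 and MLL2), or KMT2C or KMT2D (MLL3 and MLL4). The catalytic subunit sits on a core that all of them share, made of WDR5, RBBP5, ASH2L and DPY30. SETD1 complexes are known for broad H3K4 trimethylation (H3K4me3) at active promoters, KMT2A and KMT2B for promoters of developmental genes such as the Hox genes, and KMT2C and KMT2D for H3K4 monomethylation at enhancers. The comparison here concerns the mRNA of these enzymes in cells that lack RNF20. It holds no measurement of the histone marks.

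The libraries held between 20545442 and 21746898 counts. Rnf20 mRNA lay between 106 and 107 CPM (counts scaled by the TMM-normalized library size) in the WT libraries and between 16.4 and 18.7 CPM in the KO libraries, 16.8% of WT (log2 fold change -2.57, SE 0.0812, adjusted p = 0.000163 by edgeR's quasi-likelihood test). Rnf40, the partner of RNF20, had a log2 fold change of -0.019 (edgeR, adjusted p = 0.889). KO replicate 3 stood apart from the other KO libraries. Its counts gave a chi-square of 92.4 and 101 per gene against KO replicates 1 and 2, while KO replicates 1 and 2 gave 8.57 and the WT pairs 6.04 to 8.92. KO replicates 1 and 3 held 0 and 1 counts of 4 Y-linked genes, and the other libraries held 4774 to 5608. All 12 fibroblast markers were present, with a summed level of 32786 to 35648 CPM in WT and of 35196, 43115 and 23601 CPM in KO replicates 1 to 3. All KO libraries lay below WT in 3 of them (Thy1, Pdgfra and Lum), against 28.2% of all genes. They lay above WT in 2, Vim and Fn1, against 26.6%. Thy1 had a log2 fold change of -1.11 (adjusted p = 0.00251) and Pdgfra of -1.22 (adjusted p = 0.0185, both by edgeR). Fn1 had 0.56 (edgeR, adjusted p = 0.0697). The 10 macrophage markers summed to 61.1 to 130 CPM in WT and to 105, 67.5 and 262 CPM in KO. Lyz2 made up 159 CPM of the sum in KO replicate 3. In that library Adgre1 (31.9 CPM) and Cd14 (25.4 CPM) were above all WT libraries, and Mrc1 (1.91 CPM) and C1qa (3.71 CPM) below. The log2 fold change was above 0 in 6 of the 10 markers and below 0 in 4, against 50% of all genes below 0. The 6 endothelial markers summed to 55.3 to 68.8 CPM in WT and to 75.1, 61.5 and 48.0 CPM in KO. Most of this was Tek, at 46.6 to 58.1 CPM in WT. Emcn was at 0 in every WT library, where Pecam1 and Cdh5 reached 0.095 and 0.24 CPM. The 5 epithelial markers summed to 54.4 to 58.3 CPM in WT and to 76.5, 53.0 and 21.5 CPM in KO. All KO libraries lay below WT in 3 of them (Epcam, Krt8 and Krt18), against 28.2% of all genes. They lay above WT in 1, Krt19 (43.2, 29.7 and 18.4 CPM, WT 12.7 to 15.4), against 26.6%. All 10 proliferation genes were lower in KO at an adjusted p under 0.05, against 16.6% of all genes. Under 0.01 there were 4, against 4.89% (edgeR). Their sums were 1454 to 1511 CPM in WT and 637, 554 and 228 CPM in KO. The part of these differences in the values of the methyltransferase genes was not tested.

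None of the 10 methyltransferase genes passed the threshold of the study, an adjusted p under 0.01, in the comparison of KO with WT. Dot1l was the nearest, at 75.6% of its WT level, and it passed an adjusted p under 0.05. Kmt2a was the 1 gene of the group with a higher mean in KO, and its libraries overlapped. All 10 genes passed the filter on low counts. After Benjamini-Hochberg adjustment over 13386 genes (edgeR, quasi-likelihood), 0 of the 10 were called at 0.01, against 9.88% of all genes tested, and 1 was called at 0.05, against 33%. At an unadjusted p under 0.05 there were 2, Dot1l and Wdr5, against 45.6%. Under the full thresholds of the study, which add a fold change over 2 and an FPKM over 1, there were 0, against 3.59%. DESeq2 called 1 gene at 0.01, Dot1l, against 26.9% of all genes, and edgeR's exact test called 0, against 21.7%. With other normalizations and filters 0 of the 10 were called at 0.01, against 9.83% (RLE size factors), 10.2% (library size only), 7.22% (no filter) and 10.3% (CPM over 1 in at least 3 libraries) of all genes. Limma on the authors' FPKM values called 0, against 8.45%. A loess correction for gene length called 1, Dot1l, against 11.4%. The log2 fold change was below 0 in 9 of the 10 genes, against 50% of all genes. The KO libraries all lay below the WT libraries in 4 genes (Dot1l, Kmt2b, Setd1a and Wdr5), against 28.2% of all genes, and all above in 0, against 26.6%. The median log2 fold change of the 10 genes was -0.14, and that of all genes tested was -0.00032 with an interquartile range of -0.32 to 0.31. Without KO replicate 3 the median of the 10 was -0.017 and 2 genes, Dot1l and Kmt2a, were called at 0.01, against 33.2% of all genes, and 3 at 0.05, these and Wdr5, against 48.1%.

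**Figure D1:**
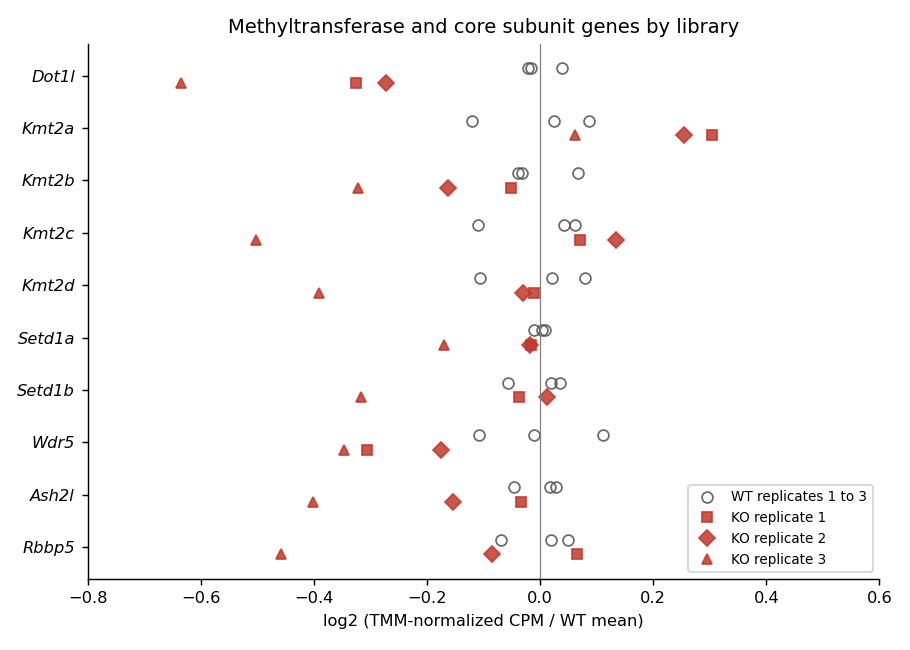
Log2 ratio of CPM to the WT mean for each of the 10 genes in the 6 libraries, with 1 point for each library. Dot1l lies at -0.64 to -0.27 in KO, and KO replicate 3 is the lowest KO library for all 10 genes.

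The catalytic gene of H3K79 methylation is Dot1l (ENSMUSG00000061589). It spans chr10:80755206-80795461 on the plus strand of GRCm38 and had no exon shared with another gene. DOT1L is the main enzyme for this mark in mammals and has no SET domain. Dot1l counted 109, 114 and 109 CPM in WT replicates 1 to 3. In KO replicates 1 to 3 it counted 88.3, 91.5 and 71.2 CPM. Every KO library lay below every WT library, and KO replicate 3 was the lowest. The log2 fold change was -0.40 (SE 0.105, 95% confidence interval -0.65 to -0.15, adjusted p = 0.0287 by edgeR). Of all genes tested, 20.7% had a lower value. The difference stood in KO replicates 1 and 2 alone at -0.30 (edgeR, adjusted p = 0.00160). Leaving out any 1 of the other libraries gave adjusted p-values of 0.0365 to 0.0970. With a term for Y-linked transcripts, which sets KO replicates 1 and 3 apart from the rest, the value was -0.27 (edgeR, adjusted p = 0.303), in a comparison that called 0.00747% of all genes at 0.01.

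The H3K4 enzyme with the opposite sign was Kmt2a (ENSMUSG00000002028, chr9:44803355-44881296, minus strand), the gene that is rearranged in mixed-lineage leukaemia. An exon of AC061963.1 overlaps it on the opposite strand. The use of strand in counting is not given, so the counts of Kmt2a are less certain. Kmt2a counted 175, 182 and 158 CPM in WT and 212, 205 and 179 CPM in KO. KO replicates 1 and 2 lay above all WT libraries, and KO replicate 3 lay within their range. Its log2 fold change was 0.21 (SE 0.0936, 95% confidence interval -0.012 to 0.43, adjusted p = 0.127 by edgeR). Without KO replicate 3 it was 0.28 (edgeR, adjusted p = 0.00556), and with the other libraries left out in turn the adjusted p ran from 0.166 to 0.343.

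KMT2A, KMT2B and the SETD1 subunit CXXC1 carry a CXXC domain that binds unmethylated CpG, and the start sites of Dot1l and Kmt2a, the genes with the lowest and the highest log2 fold change of the group, are shown for their CpG. The windows are RefSeq sequence of GRCm38.p6, from 250 bases before to 50 bases after the start, written 5′ to 3′ on the strand of the gene, with each CG in capitals.
Dot1l, chr10:80754953-80755252, plus strand: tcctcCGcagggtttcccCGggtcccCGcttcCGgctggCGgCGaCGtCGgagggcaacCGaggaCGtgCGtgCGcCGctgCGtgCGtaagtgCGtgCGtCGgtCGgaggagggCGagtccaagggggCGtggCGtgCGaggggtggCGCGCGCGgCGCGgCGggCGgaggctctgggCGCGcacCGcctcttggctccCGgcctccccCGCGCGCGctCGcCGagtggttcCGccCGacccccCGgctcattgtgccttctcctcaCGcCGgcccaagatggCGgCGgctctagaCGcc
Kmt2a, chr9:44881240-44881539, minus strand: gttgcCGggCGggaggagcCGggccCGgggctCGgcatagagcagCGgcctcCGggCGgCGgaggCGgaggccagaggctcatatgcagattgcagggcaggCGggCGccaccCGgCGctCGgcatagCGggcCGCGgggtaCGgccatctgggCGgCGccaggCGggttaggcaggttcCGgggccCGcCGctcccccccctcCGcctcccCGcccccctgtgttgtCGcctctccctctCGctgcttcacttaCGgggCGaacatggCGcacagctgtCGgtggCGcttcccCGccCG
The Dot1l window held 49 CG and the Kmt2a window 36, and CG reads the same on both strands. Of 32851 RefSeq windows of this length, 94.6% held at least 1 CG and the median was 7. As many as in Dot1l were found in 1.02% of windows, and as many as in Kmt2a in 6.23%. A window was found for 7 of the 10 genes (not for Kmt2b, Setd1b and Ash2l), and these held 16 to 56 CG, with Rbbp5 the lowest and Kmt2c the highest. These counts describe the sequence, and methylation or binding at these sites was not measured here.

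Kmt2b (ENSMUSG00000006307, chr7:30568858-30588726, minus strand) is the paralog of Kmt2a and is needed for H3K4me3 at bivalent promoters. Kmt2b counted 96.1, 96.5 and 103 CPM in WT and 95.2, 88.1 and 79 CPM in KO. The KO libraries lay below the WT libraries, KO replicate 1 by less than the range of the WT libraries. Relative to WT the log2 fold change was -0.17 (SE 0.0883, 95% confidence interval -0.38 to 0.035, adjusted p = 0.168 by edgeR). Within each library the log2 ratio of Kmt2a to Kmt2b counts does not depend on scaling. It was 0.86, 0.92 and 0.61 in WT and 1.15, 1.21 and 1.18 in KO. The ratio was higher in every KO library, KO replicate 3 included, than in any WT library, by 0.39 on average. An exact two-sided permutation test over the 6 libraries gave p = 0.1, the smallest it can give with 3 against 3, and 0.3 after adjustment over 3 paralog pairs.

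Kmt2c (ENSMUSG00000038056, chr5:25271798-25498783, minus strand, with exons of Gm42585 on the opposite strand) and Kmt2d (ENSMUSG00000048154, chr15:98831669-98871204, minus strand) encode the enhancer enzymes. The overlap makes the counts of Kmt2c less certain, as for Kmt2a. Kmt2c counted 80.9, 82.0 and 72.8 CPM in WT and 82.5, 86.2 and 55.4 CPM in KO. KO replicates 1 and 2 were above all WT libraries and KO replicate 3 was below all of them. The log2 fold change of Kmt2c was -0.072 (SE 0.168, adjusted p = 0.764 by edgeR) and turned to 0.10 without KO replicate 3 (adjusted p = 0.234). Kmt2d counted 247, 257 and 226 CPM in WT and 242, 238 and 186 CPM in KO. Its libraries overlapped, apart from KO replicate 3, which was the lowest. For Kmt2d the log2 fold change was -0.13 (SE 0.118, adjusted p = 0.406 by edgeR). The log2 ratio of Kmt2c to Kmt2d differed between genotypes by 0.045 (exact two-sided permutation test, p = 0.7).

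Setd1a (ENSMUSG00000042308, chr7:127776670-127800122, plus strand) and Setd1b (ENSMUSG00000038384, chr5:123142193-123168629, plus strand) encode the enzymes of the SETD1 complexes. Exons of Gm49388 on the same strand and of 9430064I24Rik on the opposite strand overlap Setd1a, so its counts are less certain. Setd1a counted 99.2, 101 and 100 CPM in WT and 98.9, 98.8 and 88.9 CPM in KO. The KO libraries were all lower, KO replicates 1 and 2 by less than 1 CPM below the lowest WT library. For Setd1a the log2 fold change was -0.066 (SE 0.0709, 95% confidence interval -0.23 to 0.10, adjusted p = 0.496 by edgeR). Setd1b counted 72.5, 73.3 and 68.8 CPM in WT and 69.7, 72.2 and 57.4 CPM in KO, with overlap. Its log2 fold change was -0.11 (SE 0.101, 95% confidence interval -0.35 to 0.13, adjusted p = 0.438 by edgeR). The log2 ratio of Setd1a to Setd1b differed by 0.046 (exact two-sided permutation test, p = 0.6). For the 6 H3K4 enzymes together the summed level was 729 to 792 CPM in WT and 645 to 800 CPM in KO (exact two-sided permutation test, p = 0.9).

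Of the core subunits, Wdr5 (ENSMUSG00000026917, chr2:27515157-27536535, plus strand) encodes the WD40 protein that joins the catalytic subunit to the rest. Wdr5 counted 60.5, 70.4 and 64.7 CPM in WT and 52.7, 57.7 and 51.2 CPM in KO. All KO libraries were below the WT libraries, and here KO replicate 3 was close to KO replicate 1. The log2 fold change was -0.27 (SE 0.0879, 95% confidence interval -0.48 to -0.065, adjusted p = 0.0521 by edgeR). It was -0.24 without KO replicate 3 (adjusted p = 0.0295). Ash2l (ENSMUSG00000031575, chr8:25815996-25847694, minus strand), which with RBBP5 activates the SET domain, counted 70.2, 66.7 and 69.7 CPM in WT and 67.3, 61.9 and 52.2 CPM in KO. Rbbp5 (ENSMUSG00000026439, chr1:132477365-132505659, plus strand) counted 43.8, 44.7 and 41.2 CPM in WT and 45.2, 40.7 and 31.5 CPM in KO. Both overlapped between genotypes, with KO replicate 3 the lowest. The log2 fold changes were -0.19 for Ash2l (SE 0.104, adjusted p = 0.201) and -0.14 for Rbbp5 (SE 0.136, adjusted p = 0.441, both by edgeR). The sum of these 3 genes was 174 to 182 CPM in WT and 135 to 165 CPM in KO, lower in every KO library (exact two-sided permutation test, p = 0.1, the smallest it can give).

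**Figure D2:**
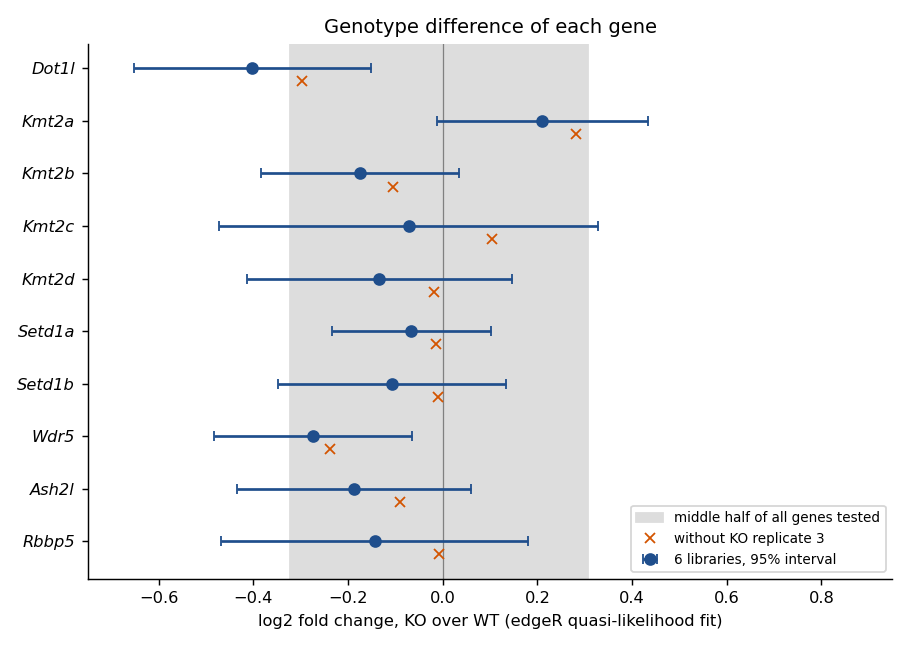
Log2 fold change of KO over WT for each gene with its 95% confidence interval, from all 6 libraries (circles), its value without KO replicate 3 (crosses), and the interquartile range of all genes tested (grey band). Dot1l is lowest at -0.40 and Kmt2a highest at 0.21, and most of the other values move towards 0 when KO replicate 3 is left out.

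KO replicate 3 was the lowest KO library for all 10 genes, against 44% of all genes tested, and the lowest of all 6 libraries for 9 of them, against 34%. The difference between KO replicate 3 and the mean of KO replicates 1 and 2 was smallest for Wdr5, at -0.11 on the log2 scale, and largest for Kmt2c, at -0.60. Most of the methyltransferase genes are long. In the deposited lengths 6 of the 10 exceed 8000 bases, and Kmt2d is the longest at 20941 bases. Over all 1084 genes tested that exceed 8000 bases, the median difference of KO replicate 3 from KO replicates 1 and 2 was -0.29, and over the 567 genes under 1000 bases it was 0.25. After a loess correction for gene length in each library the log2 fold change of Dot1l was -0.33 (edgeR, adjusted p = 0.0099) and that of Kmt2a 0.25 (edgeR, adjusted p = 0.0609). Dot1l then passed 0.01, in a comparison that called 11.4% of all genes. The part of RNA quality in the difference of KO replicate 3 was not tested.

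The authors' FPKM values (fragment values scaled to transcript length and library size, from Cufflinks) gave another picture of the longest genes in that library. By FPKM, Kmt2a had 15.8, 15.5 and 14.7 in WT and 18.8, 17.3 and 22.1 in KO. All KO libraries were then above all WT libraries, and KO replicate 3 was the highest, where by CPM it was the lowest KO library. Limma on log2(FPKM + 1) gave a log2 fold change of 0.32 for Kmt2a (adjusted p = 0.0630). Kmt2d had FPKM values of 14.6, 16.7 and 13.7 in WT and 14.1, 15.9 and 17.9 in KO, with KO replicate 3 again the highest. The FPKM obtained for each CPM in KO replicate 3 was above the WT mean by 0.65 on the log2 scale in Kmt2d, 0.47 in Kmt2a and 0.43 in Kmt2c, at the 99.5th, 99.0th and 98.8th percentiles of 10886 genes of all lengths. Among the 42 of these over 16000 bases, which include Kmt2d, Kmt2a and Kmt2c, the median was 0.065 and the interquartile range -0.12 to 0.42. The value in KO replicate 3 was 0.11 in Dot1l and 0.15 in Kmt2b, and between -0.041 and 0.0012 in the other 5 genes. In KO replicates 1 and 2 it stayed between -0.13 and 0.12 in all 10 genes. The sign of the KO to WT ratio differed between the scales in 2 of the 10 genes, Kmt2c and Kmt2d, against 4.25% of the 12633 genes with FPKM. KO replicate 3 was the highest KO library by FPKM in 2 of the 10, Kmt2a and Kmt2d, against 41.4% of genes, and the lowest in 7, against 45.9%. By FPKM the KO libraries all lay below the WT libraries in 5 genes (Dot1l, Kmt2b, Setd1b, Wdr5 and Ash2l), against 28% of genes, and all above in 1, Kmt2a, against 24%. Dot1l lay below WT on both scales. Its FPKM was 15.9, 15 and 15.4 in WT and 12.6, 12.1 and 10.7 in KO, with a log2 fold change of -0.36 (limma, adjusted p = 0.0278).

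**Figure D3:**
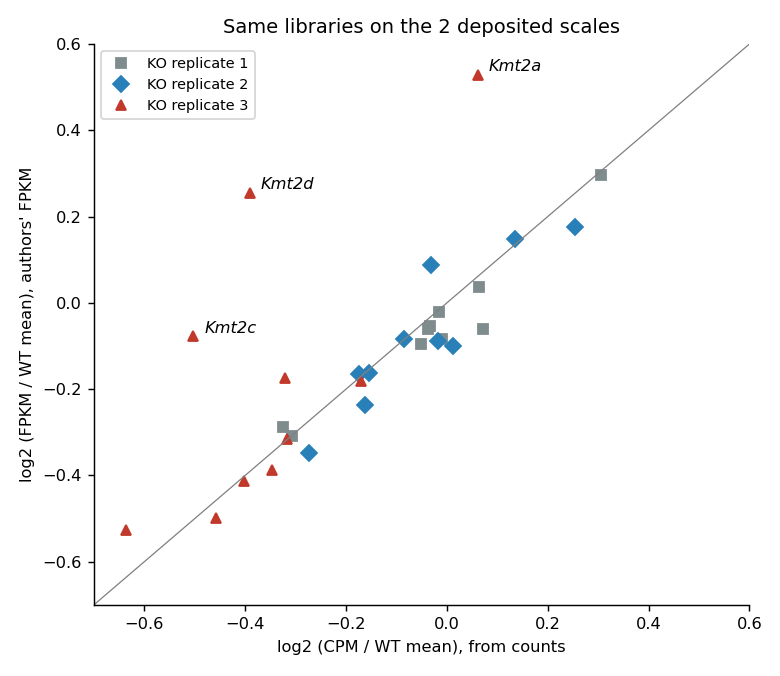
Log2 ratio of each KO library to the WT mean for the 10 genes, with the line of equal values. The x axis is by CPM and the y axis by the authors' FPKM. Kmt2a, Kmt2c and Kmt2d in KO replicate 3 lie above the line by 0.43 to 0.65, and the other points lie within 0.15 of it.

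Levels of different genes can be compared only per length. By FPKM the order in WT was Ash2l (mean 25.8), Wdr5 (25), Dot1l (15.4), Kmt2a (15.3), Kmt2d (15), Setd1a (14.2), Rbbp5 (14.2), Kmt2b (11.0), Setd1b (7.01) and Kmt2c (5.96). Of these neighbours, Wdr5 and Dot1l, Rbbp5 and Kmt2b, Kmt2b and Setd1b, and Setd1b and Kmt2c did not overlap between their libraries, and the others did. In the KO libraries Dot1l stood after Rbbp5, with a mean of 11.8, and Kmt2a after Ash2l and Wdr5, with a mean of 19.4. Their libraries overlapped those of the gene above them in the order. The WT order depends on the scale. With counts per kilobase of the deposited length Wdr5 (22.2) and Ash2l (20.8) were still the highest and Setd1b (8.08) and Kmt2c (4.48) the lowest, but Kmt2a (10.4) came after Setd1a (15.4), Dot1l (13.5), Rbbp5 (11.9), Kmt2b (11.6) and Kmt2d (11.6).

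**Figure D4:**
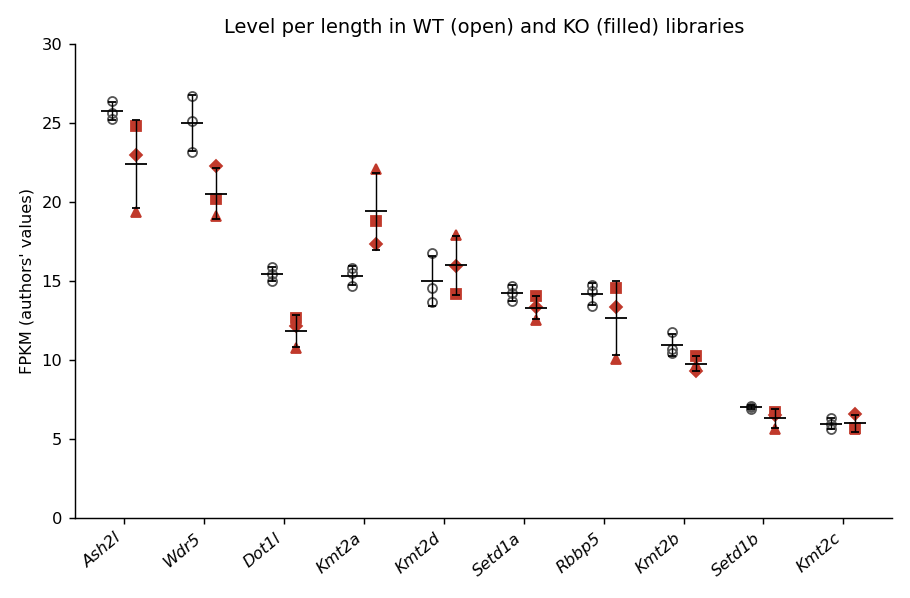
FPKM of the 10 genes in the WT (open) and KO (filled) libraries, ordered by the WT mean. Ash2l and Wdr5 lie at 23.2 to 26.7 FPKM in WT, and Setd1b and Kmt2c at 5.61 to 7.1.

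Within the summed FPKM of the 6 H3K4 enzymes, Kmt2a made up 22.4% ± 0.81 in WT and 27.4% ± 2.5 in KO (SD, n = 3 each, exact two-sided permutation test, p = 0.1, 0.15 after adjustment over 6 shares). Per kilobase of counts the share of Kmt2a was 16.8% in WT and 20.2% in KO, again with no overlap. Kmt2b made up 16.0% of the summed FPKM in WT and 13.8% in KO, Setd1a 20.8% and 18.8%, and Setd1b 10.2% and 8.93%. Kmt2d (21.9% and 22.6%) and Kmt2c (8.71% and 8.48%) overlapped between genotypes. The shares add up to a fixed total, so a higher share of 1 gene lowers the others. The differences by FPKM were not all kept by counts per kilobase. For Setd1a the difference was -1.93 percentage points by FPKM and -0.16 by counts per kilobase, and for Setd1b it was -1.32 and -0.49, with overlap by counts in both genes (exact two-sided permutation test by counts, p = 0.8 and p = 0.2). For Kmt2d the sign turned, from 0.70 to -1.07, and for Kmt2b it was -2.22 and -1.53, without overlap on either scale. The sum of the 6 genes was 67.0 to 70.6 FPKM in WT and 69.1 to 73.5 in KO (exact two-sided permutation test, p = 0.3).

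Across the 6 libraries the log2 CPM of Dot1l was most like that of Lrch1, Acat1, Amer1, Taf5 and Sema3f, with Pearson r from 0.998 to 0.999 over 13386 genes searched. Within the group, Dot1l was most like Wdr5 (r = 0.90) and least like Kmt2a (r = -0.38), while Setd1b and Kmt2d had r = 0.98. These values describe 6 libraries that fall into 2 genotypes. KO replicate 3 is the lowest of them in 9 of the 10 genes, all but Kmt2a.

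The other subunits of the COMPASS complexes had a log2 fold change below 0 in 9 of 12 genes tested, against 50% of all genes. Their median was -0.32. None was called at 0.01, against 9.88% of all genes. At 0.05 there were 5 lower and 0 higher (edgeR), against 16.6% and 16.4% of all genes. The 5 were named after their values were seen. Psip1, which encodes the chromatin tether of the menin complexes, had -0.89 (adjusted p = 0.0158). Men1, which encodes menin, had -0.56, Paxip1, of the KMT2C and KMT2D complexes, -0.51, Wdr82, of the SETD1 complexes, -0.45, and Dpy30, the last subunit of the shared core, -0.44 (edgeR, adjusted p = 0.0242, 0.0185, 0.0137 and 0.0122). Dpy30 counted 24.2, 26.0 and 23.4 CPM in WT and 18.6, 17.8 and 18.1 CPM in KO. KO replicate 3 did not stand apart in Dpy30, whereas in Psip1 it had 87.1 CPM against 144 and 139 in the other KO libraries and 218 to 249 in WT. Hcfc1, a scaffold of several of these complexes, had -0.47 (adjusted p = 0.111). Without KO replicate 3, 6 of the 12 were called lower and 2 higher at 0.01, with a median of -0.20, in a comparison that called 33.2% of all genes.

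The 4 partners of DOT1L divided by direction. Mllt3 (AF9), a subunit that recruits DOT1L, rose from 74.6, 67.3 and 69.1 CPM in WT to 106, 100 and 103 CPM in KO (log2 fold change 0.55, SE 0.0716, adjusted p = 0.00443 by edgeR). Mllt6 (AF17) fell from 122, 117 and 116 CPM to 82.3, 83.2 and 73.9 CPM (-0.57, SE 0.0742, adjusted p = 0.00457). In both genes the KO libraries stood clear of the WT libraries. KO replicate 3 lay between the other KO libraries in Mllt3 and was the lowest in Mllt6. Mllt10 (AF10), which is needed for higher H3K79 methylation states, had -0.26 (adjusted p = 0.0410), and Mllt1 (ENL), the paralog of Mllt3, -0.003 (adjusted p = 0.976, both by edgeR). At 0.01 this is 1 lower and 1 higher of 4, against 4.89% and 4.98% of all genes. The same counts were obtained without KO replicate 3, in a comparison that called 33.2% of all genes.

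**Figure D5:**
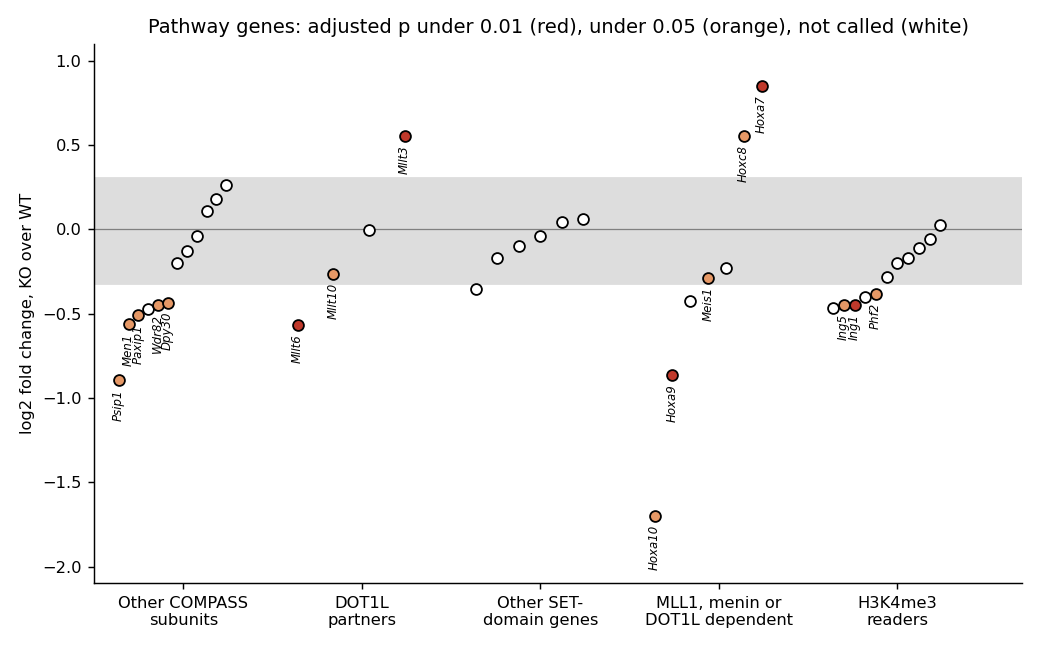
Log2 fold change of KO over WT for the genes of 5 lists around the methyltransferases, with red points at an adjusted p under 0.01, orange under 0.05 and white above, and a grey band from -0.32 to 0.31 for the interquartile range of all genes tested. Mllt6 and Mllt3 lie on opposite sides of 0, as do Hoxa9 and Hoxa7.

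Genes known to depend on MLL1, menin or DOT1L also moved in both directions. Hoxa9 fell from 18.9, 20.8 and 19.8 CPM in WT to 12.4, 9.92 and 10.3 CPM in KO (-0.86, SE 0.118, adjusted p = 0.00512 by edgeR). Hoxa7, of the same cluster, rose from 23.7, 20.5 and 25.8 CPM to 37.9, 40.5 and 47.8 CPM (0.85, SE 0.128, adjusted p = 0.00638). The genotypes did not overlap in either gene. At an adjusted p under 0.05, 3 of the 7 genes tested were lower and 2 higher, against 16.6% and 16.4% of all genes, and at 0.01 these were 1 and 1, against 4.89% and 4.98%. These include, named after their values were seen, Hoxa10 at -1.70 (adjusted p = 0.0160), Meis1, a cofactor of the HOX proteins, at -0.29 (adjusted p = 0.0314) and Hoxc8 at 0.55 (edgeR, adjusted p = 0.0336). Hoxa10 counted 38.1 to 41.5 CPM in WT and 17.6, 13.5 and 5.62 CPM in KO, with KO replicate 3 the lowest. Pbx3, a second cofactor, had -0.23 (edgeR, adjusted p = 0.285). The median of the list was -0.29.

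Of 11 genes tested that encode readers of H3K4me3, 10 had a log2 fold change below 0, against 50% of all genes, with a median of -0.28. Ing1, which brings a histone deacetylase complex to H3K4me3, fell from 51.4, 51.3 and 46.7 CPM to 35.8, 35.9 and 37.9 CPM (-0.45, SE 0.0753, adjusted p = 0.00825 by edgeR). Ing1 was the 1 reader of 11 called at 0.01, against 9.88% of all genes, a share near the background, and 3 were lower at 0.05, against 16.6%. Ing5 (-0.45, adjusted p = 0.0162) and the demethylase gene Phf2 (-0.38, adjusted p = 0.0311), named after their values were seen, passed 0.05, while Bptf, of the NURF remodelling complex, had -0.056 (adjusted p = 0.754) and Spin1 0.027 (adjusted p = 0.777, by edgeR). Of 6 other SET-domain genes linked to H3K4, 0 passed 0.01, against 9.88% of all genes, and 0 passed 0.05, against 33%. The KO libraries all lay below the WT libraries in 1 of the 6, against 28.2%. Among them Kmt2e had -0.17 (adjusted p = 0.277) and Ash1l 0.062 (edgeR, adjusted p = 0.808). None of the genes of these 5 lists passed 0.01 when any 1 library other than KO replicate 3 was left out, where 0.0294%, 0.0147% and 0.00736% of all genes were called without WT replicates 1, 2 and 3, and 1.1% and 0.649% without KO replicates 1 and 2.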

How the data were processed

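Poly(A) RNA of 3 WT and 3 Rnf20-/- cultures was sequenced on day 3. The authors aligned the reads to GRCm38/mm10 with HISAT2 2.1.0 (versions from the submitters' processing notes) and deposited whole-number counts per gene, without normalization, beside gene lengths. The counting program and its use of strand are not given in the sources used here. The authors deposited FPKM values from Cufflinks 2.1.1 for 12633 genes, and their table also holds a log2 fold change and an FDR for each gene, which were not used. Each count column in that table equals the column of the count table.

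Genotypes were compared in R 4.3.3 with edgeR 4.0.16 (TMM, filterByExpr at its defaults, quasi-likelihood test without covariates, Benjamini-Hochberg adjustment over 13386 genes, threshold 0.01). CPM values use TMM library sizes. Standard errors are the log2 fold change over the square root of F. Shares, ratios and sums were compared by exact permutation tests. FPKM values were tested with limma 3.58.1 on log2(FPKM + 1), an alternative added after the data were seen. The FPKM for each CPM was read in 10886 genes with at least 50 counts in every library. DESeq2 1.42.0, other normalizations and filters, a loess correction for gene length (span 0.5), a term for Y-linked transcripts (over 100 counts of 4 genes), the replicate block and the omission of each library were alternatives. Positions are from GENCODE annotation of GRCm38 and windows around start sites from RefSeq.

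The libraries held 20545442 to 21746898 counts, so that 3 counts lie at 0.142 to 0.143 CPM. Counting error only is covered by this floor. The 10 genes and the lists were chosen with earlier results of these data known. The named genes were Rnf20, Rnf40, the 10 genes, up to 4 called genes of each list with the lowest adjusted p, the 2 uncalled genes of each list with the highest mean CPM, and the 5 genes most like Dot1l. Pagr1a, Hoxc6 and Chd1 were not matched to 1 gene each and were not used, and Smyd1 and 3 endothelial markers did not pass the filter.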

Additional observations from a re-analysis of the deposited data

How the results depend on the processing

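At an adjusted p under 0.01, edgeR's quasi-likelihood test called 1322 genes, of which 0 were methyltransferase genes and 5 were in the pathway lists. DESeq2 called 3597, 1 and 14, edgeR's exact test 2905, 0 and 11, and a threshold of 0.05 gave 4413, 1 and 16. The loess correction for gene length called 1523, 1 and 6. Limma on FPKM, added after the data were seen, called 1068, 0 and 3. With the term for Y-linked transcripts the genotype value compares KO replicate 2 alone with the WT libraries, so no number of genes is given. Leaving out each library gave 1 to 4485 genes, 0 to 2 methyltransferase genes and 0 to 17 pathway genes, with the high ends without KO replicate 3 and 1, 0 and 0 without WT replicate 3. The cause was not tested.

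Same-numbered WT and KO libraries deviated from their group means with correlations of -0.066, 0.037 and 0.011, and differently numbered ones with -0.069 to 0.072. These values show no pairing by replicate number, but with 3 libraries in each genotype they cannot exclude it. The replicate block called 0 genes (5552 at an unadjusted p under 0.05), 0 methyltransferase genes and 0 pathway genes, with Rnf20 at -2.58 (edgeR, adjusted p = 0.0168). Under the Y-linked term, which compares KO replicate 2 alone with the WT libraries, Rnf20 was -2.52.

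Kmt2c reversed to 0.0044 in limma on FPKM and to 0.10 without KO replicate 3, within a range of -0.18 to 0.10 with each library left out. Under the Y-linked term, where KO replicate 2 alone stands against WT, Kmt2c reversed to 0.13 and Setd1b to 0.013. Kmt2d reversed to 0.086 in limma on FPKM. The other 7 methyltransferase genes kept their sign in all 17 alternatives. With counts per kilobase 2 of the 10 genes kept their rank in WT, against 5 to 8 with a WT library left out of the FPKM means, and the difference in the share of Setd1a was -0.16. RLE size factors, library size only and other filters left the number of genes called within 1.5 times. The 3 libraries in each genotype, and KO replicate 3 among them, limit what small differences can show, and with 3 against 3 the exact tests cannot go below 0.1.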
